A study of Mus musculus with 20 samples.

Results

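The 9 genes described here mark Thy1hi keratinocytes of the mouse epidermis by their choice: 5 that were high in these cells (*Thy1*, *Epb41l3*, *Crispld2*, *Procr* and *Ch25h*) and 4 that were low (*Slco2b1*, *Rgs4*, *Enpp1* and *Slc41a2*). These 9 genes, of 53380 in the table, were chosen by the size of their change in Thy1-high cells against Thy1- or follicle cells, so their values in those contrasts are given as a description, with no test. All 9 passed the filter on low values that left 17204 genes for testing (at least 10 normalized counts in at least 3 libraries). Bulk RNA-seq was carried out on 20 libraries of cells sorted by fluorescence-activated cell sorting (FACS) from mouse epidermis, in 5 populations. The α6+Sca1+ keratinocytes of the epidermis between the hairs were split into Thy1hi (n = 4) and Thy1- (n = 4). A further population holds Thy1hi cells that also carried the yellow fluorescent reporter (Thy1hiYFP+, n = 3). The others are hair follicle stem cells (HFSCs, n = 4), sorted as CD34+ cells with α6 but no Sca1, and dendritic epidermal T cells (DETCs, n = 5), sorted as α6-Sca1low Thy1+.

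Per the labels, all samples had the genotype Thy1.2CreERT2-Rosa26-EYFP and received no treatment, whereas the study's methods give wild-type C57BL/6J mice for the populations without the reporter and induction of the reporter for the Thy1hiYFP+ cells. In that model a *Thy1* promoter drives an inducible Cre recombinase, so YFP reports past activity of a *Thy1* transgene. The cell type label of the Thy1hiYFP+ samples reads ScaI-, although the study describes them as Sca1+, and *Ly6a*, which encodes Sca1, was listed at 200.5 to 401 normalized counts there against 185 to 261 in Thy1hi cells. The labels' ages rise from 8 to 27 weeks in the order of the samples, so that each population covers separate ages, whereas the design text gives 8 weeks for all. Age and population therefore cannot be told apart if the labels hold. The study pooled mice for sorting. Its methods name no batches of library preparation, and the labels do not assign libraries to any. Within-batch values could therefore not be computed, and the part of batch in differences between populations was not tested. Thy1hi and Thy1- libraries of the same number did deviate together. Their r was 0.293 to 0.716 over 4 pairs, against -0.651 to 0.514 for libraries of different number, and this pairing is used below. In bulk RNA, a change in the share of cells that express a gene and a change per cell cannot be told apart.

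Basal keratinocytes lie on the basement membrane and renew the epidermis, and follicle stem cells in the bulge renew the hair. Thy1, also called CD90, is a glycoprotein held on the cell surface by a lipid anchor. It is best known on T cells, neurons and fibroblasts, and in mouse skin it has long served as a marker of DETCs, the T cells that live among keratinocytes. The other genes have different roles. *Procr* encodes the endothelial protein C receptor, *Epb41l3* a membrane skeleton protein of the protein 4.1 family, *Crispld2* a secreted protein with CAP and LCCL domains, and *Ch25h* the enzyme that makes 25-hydroxycholesterol. *Enpp1* encodes the surface enzyme that produces pyrophosphate from nucleotides, *Slco2b1* an organic anion transporter, *Slc41a2* a magnesium transporter, and *Rgs4* a protein that shortens signalling by G proteins. Thy1 was also a gate of the sort, so a difference in *Thy1* between the sorted populations restates how the cells were picked.

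The genes lie on 8 chromosomes, with *Enpp1* and *Slc41a2* both on chromosome 10 of mm10. *Thy1* (ENSMUSG00000032011) spans chr9:44043384-44048579 on the plus strand and *Epb41l3* (ENSMUSG00000024044) chr17:69075683-69289989 on the plus strand. *Crispld2* (ENSMUSG00000031825) lies at chr8:119992438-120052793 and *Procr* (ENSMUSG00000027611) at chr2:155751117-155755471, both on the plus strand. On the minus strand lie *Ch25h* (ENSMUSG00000050370, chr19:34473786-34475135), *Slco2b1* (ENSMUSG00000030737, chr7:99657804-99711340) and *Rgs4* (ENSMUSG00000038530, chr1:169741477-169747642). So do *Enpp1* (ENSMUSG00000037370, chr10:24637914-24712159) and *Slc41a2* (ENSMUSG00000034591, chr10:83230848-83337882). All 9 are protein-coding in GENCODE vM21. *Ch25h* has 1 exon there, and its position in the table differs slightly from that annotation. *Ch25h* overlaps *Gm26902*, an RNA on the other strand with at most 75.6 normalized counts in any library, and *Slco2b1* overlaps the antisense gene *Gm15635*, with at most 38.2. Whether the counting used strand is not given in the sources used here, so reads of these pairs may be shared.

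Promoter sequences are shown for 2 of the genes that were high in Thy1hi cells and 2 that were low, to let the start regions be compared. They are the 250 bases before the RefSeq start (GRCm38.p6), written 5′ to 3′ in the direction of the gene. Capitals mark a match, on either strand, to 1 of 8 motifs searched. Those shown are the TATA box TATAAA in *Ch25h* and *Rgs4*, the GC box GGGCGG in *Enpp1*, the box CCAAT in *Crispld2* and *Rgs4*, and the E-box CACGTG in *Crispld2*. Also searched were the AP-1 motif, spelled TGANTCA in these searches, then the motif of the TEAD factors, spelled GGAATG, and that of the STAT factors, spelled TTCNNNGAA. The last was the LIM homeobox motif, spelled TAATTA. The 4 windows are chr8:119992188-119992437 on the plus strand for *Crispld2*, chr19:34475149-34475398 on the minus strand for *Ch25h*, chr1:169747643-169747892 on the minus strand for *Rgs4* and chr10:24712160-24712409 on the minus strand for *Enpp1*.
Crispld2: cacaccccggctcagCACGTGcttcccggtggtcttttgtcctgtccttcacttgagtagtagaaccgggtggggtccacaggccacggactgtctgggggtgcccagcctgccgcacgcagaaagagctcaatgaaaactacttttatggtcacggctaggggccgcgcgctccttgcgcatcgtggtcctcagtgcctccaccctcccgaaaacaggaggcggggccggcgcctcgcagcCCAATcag
Ch25h: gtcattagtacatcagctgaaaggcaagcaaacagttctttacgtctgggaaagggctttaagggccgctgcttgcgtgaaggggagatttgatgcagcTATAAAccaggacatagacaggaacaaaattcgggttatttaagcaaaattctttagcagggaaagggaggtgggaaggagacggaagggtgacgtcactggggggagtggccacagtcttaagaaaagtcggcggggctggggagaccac
Rgs4: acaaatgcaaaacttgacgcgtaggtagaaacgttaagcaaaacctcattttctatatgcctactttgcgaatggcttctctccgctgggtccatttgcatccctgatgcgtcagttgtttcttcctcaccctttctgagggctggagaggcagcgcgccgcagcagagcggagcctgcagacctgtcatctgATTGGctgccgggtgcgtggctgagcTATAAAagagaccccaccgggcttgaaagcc
Enpp1: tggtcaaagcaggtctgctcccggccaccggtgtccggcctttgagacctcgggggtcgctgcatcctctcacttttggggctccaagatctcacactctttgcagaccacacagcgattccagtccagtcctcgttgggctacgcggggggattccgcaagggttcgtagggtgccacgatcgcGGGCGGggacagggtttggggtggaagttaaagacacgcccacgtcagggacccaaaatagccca

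The table held promoters for 8 of the 9 genes. *Thy1* had no entry. The 8 genes have 12 promoters, with 3 each for *Epb41l3* and *Slco2b1*, so counts of genes and shares of all promoters below are unlike units. No motif was found in every gene of the high or of the low set. CCAAT was found in 4 of the 8 genes (*Epb41l3*, *Crispld2*, *Slco2b1* and *Rgs4*), where 33.8% of all 32851 promoters in the table held it. In *Epb41l3* and *Slco2b1* it lay in only 1 of the 3 promoters. The GC box was found in *Epb41l3* and *Enpp1* (32.7% of all promoters) and TATAAA in *Ch25h* and *Rgs4* (12.4%). In *Rgs4* the TATAAA match lay from 31 to 26 bases before the start, whereas in *Ch25h* it lay from 151 to 146 bases before it. The AP-1 motif was found in *Procr* (6.75% of all promoters) and the E-box in *Crispld2* (6.02%). The STAT motif (7.02%) and the TEAD motif (12.6%) were found in *Slco2b1*, overlapping each other in 1 of its 3 promoters. TAATTA, held by 4.84% of all promoters, was found in none of the 8 genes. A match to these letters is a description of the sequence and not a binding site.

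The libraries held between 7781256 and 12982393 reads on genes. A single ribosomal RNA precursor gene, *Rn45s*, took 13.1% to 41.5% of them. Defining markers followed the sorted populations. Summed over 10 T cell genes, the normalized counts were 20728 to 43472 in DETCs, 267 to 499 in Thy1hi, 148 to 279 in Thy1hiYFP+, 277 to 450 in Thy1- and 187 to 438 in HFSC libraries. *Cd34* was listed at 1600 to 2622 in HFSCs and at most 130 in any other library. The 8 basal keratinocyte genes summed to 178250 to 236460 in Thy1hi cells and 80097 to 127870 in Thy1- cells. They also summed to 11820 to 49290 in the DETC libraries, so keratinocyte RNA was present there. Neither the Thy1hi nor the Thy1hiYFP+ libraries lacked T cell genes, since none of the 10 was at 0 in a whole population.

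*Thy1* had the largest rise of all 17204 genes tested from Thy1- to Thy1hi keratinocytes. The 4 Thy1hi libraries were listed at 775, 663, 511 and 583 normalized counts, and the 4 Thy1- libraries at 77.8, 66.0, 63.1 and 69.7. These populations were far apart, with means of 633 ± 113 (SD, n = 4) and 69.1 ± 6.39 (SD, n = 4), a log2 difference of 3.16. HFSCs had 85.4, 68.4, 57.7 and 18.2, which overlaps the Thy1- range. DETCs had the highest level, with 2260, 1969, 2235, 2058 and 1163, and did not overlap Thy1hi cells. The Thy1hiYFP+ libraries stood at 694, 468 and 1546, and so reached from below the lowest Thy1hi library to the lower end of the DETCs. In the order of the means, DETCs (1937 ± 450) came before Thy1hiYFP+ (902 ± 568), Thy1hi, Thy1- and HFSCs (57.4 ± 28.5), and neighbours in that order overlapped except Thy1hi and Thy1- cells.

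**Figure D1:**
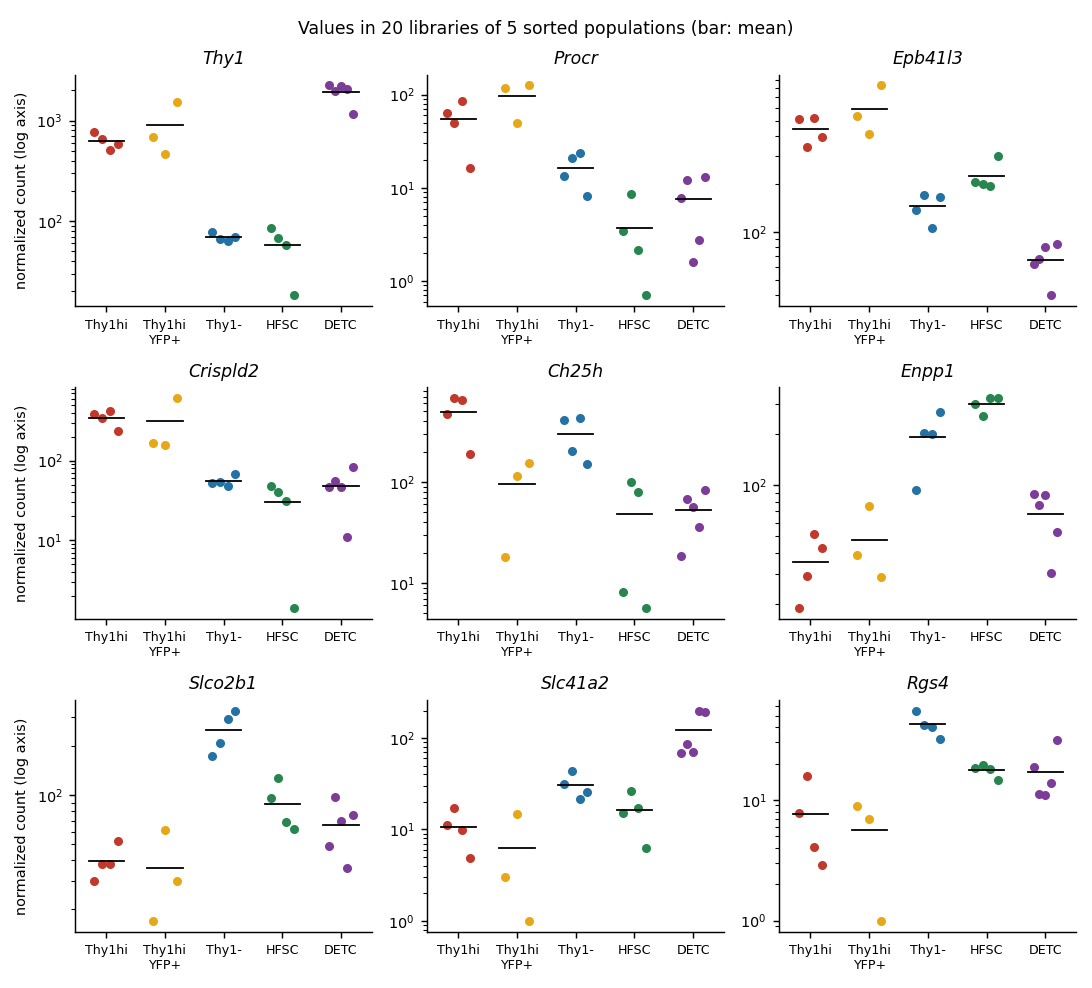
Normalized counts (log axis) of the 9 genes in each of the 20 libraries, grouped by sorted population, with a bar at the mean. Each point is 1 library. Thy1hi and Thy1hiYFP+ points overlap in every panel but *Ch25h*, where the 3 Thy1hiYFP+ libraries (17.9 to 155) lie below the 4 Thy1hi libraries (191 to 680).

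*Procr*, the receptor that presents protein C for activation, was highest in Thy1hiYFP+ cells. Its values there were 117, 49.5 and 127 normalized counts, and in Thy1hi cells 64.0, 50.1, 86.2 and 16.5. Thy1- cells had 13.4, 20.8, 23.7 and 8.20. The fourth Thy1hi library lay inside the Thy1- range, and the other 3 lay above it. Each Thy1hi library lay above the Thy1- library of the same number. HFSCs were listed at 3.46, 8.69, 2.14 and 0.70, which is between 1 and 8 reads per library, and DETCs at 1.58 to 13.2. The log2 difference between Thy1hi cells and HFSCs was 3.61, the sixth largest rise of all genes tested, and between Thy1hi and Thy1- cells 1.54. With these few reads the HFSC and DETC levels overlapped.

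*Epb41l3*, which links membrane proteins to the actin and spectrin skeleton, was listed at 512, 344, 523 and 394 normalized counts in Thy1hi cells. The Thy1- libraries had 136, 170, 106 and 166. HFSCs lay between them, with 207, 200, 194 and 301. All 4 Thy1hi libraries lay above every Thy1- and HFSC library. Thy1hiYFP+ cells had 533, 415 and 838, a mean of 595 ± 218 (SD, n = 3) against 443 ± 88.3 in Thy1hi cells, and overlapped them. DETCs were lowest, at 39.8 to 84.1, and overlapped no other population. Thy1hi cells differed by a log2 of 1.61 from Thy1- cells and of 0.98 from HFSCs.

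*Crispld2*, a secreted glycoprotein, showed a pattern close to that of *Thy1* among the keratinocytes. Thy1hi cells had 380, 339, 424 and 233 normalized counts, Thy1- cells 52.3, 53.2, 47.3 and 67.2, and HFSCs 48.5, 40.2, 31.0 and 1.40. The Thy1hi libraries lay above all of the others, by a log2 difference of 2.60 over Thy1- cells and 4.08 over HFSCs. Leaving out the HFSC library with 1.40, which rests on 2 reads, brought the latter to 3.06. The Thy1hiYFP+ libraries were spread widely, at 165, 156 and 612. DETCs, unlike for *Thy1*, were low, at 11.0 to 82.9, and overlapped the Thy1- cells and HFSCs.

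*Ch25h* did not separate the Thy1hi from the Thy1- keratinocytes by range, although each Thy1hi library lay above the Thy1- library of the same number. The Thy1hi libraries were listed at 466, 680, 644 and 191 normalized counts and the Thy1- libraries at 412, 201, 434 and 150, which overlap, with a log2 difference of 0.71. Both lay above the HFSCs, which had 8.08, 101, 80.2 and 5.61. It was chosen by this second contrast, in which its log2 difference of 4.07 was the third largest rise, and in the contrast of Thy1- cells with HFSCs its 3.36 was the second largest rise. The Thy1hiYFP+ libraries, at 17.9, 115 and 155, overlapped the HFSCs and the DETCs (18.6 to 84.1). So the name of a marker of the Thy1-high state held only in part for *Ch25h* in these libraries. It was high in α6+Sca1+ cells with and without Thy1, and lower in those with YFP. The highest Thy1hiYFP+ library (155) still lay above the lowest Thy1- library (150), so these populations overlapped.

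*Enpp1*, the main source of extracellular pyrophosphate, was lowest in Thy1hi cells, with 18.8, 29.0, 51.2 and 42.7 normalized counts. The Thy1hiYFP+ libraries had 38.9, 75.1 and 28.7. The Thy1- libraries had 93.6, 202, 200 and 271, and HFSCs were highest, at 300, 255, 326 and 328. Every Thy1hi and Thy1hiYFP+ library lay below every Thy1- and HFSC library. DETCs, at 30.2 to 89.0, overlapped both Thy1-high populations and lay below the Thy1- cells. The log2 differences of Thy1hi cells were -2.40 from Thy1- cells, the seventh largest fall, and -3.15 from HFSCs.

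*Slco2b1*, which carries organic anions into cells, was highest in Thy1- keratinocytes, at 174, 208, 294 and 330 normalized counts. Thy1hi cells had 29.8, 38.2, 38.2 and 52.4 and Thy1hiYFP+ cells 17.0, 61.2 and 29.7. HFSCs lay between, at 95.8, 128, 68.4 and 62.4. The lowest HFSC library was above all Thy1-high libraries. The log2 difference from Thy1- to Thy1hi cells was -2.62, the third largest fall of all genes tested, and that from HFSCs was -1.11. DETCs, at 35.7 to 97.6, overlapped all but the Thy1- cells.

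*Rgs4* and *Slc41a2* were detected at few reads in Thy1-high cells. *Rgs4* had 7.73, 15.8, 4.06 and 2.91 normalized counts in Thy1hi cells, from 3 to 12 reads, and 8.97, 6.97 and 0.99 in Thy1hiYFP+ cells, from 1 to 9 reads. Thy1- cells had 54.7, 41.7, 40.2 and 32.0 and HFSCs 18.5, 19.6, 18.2 and 14.7. The log2 difference of Thy1hi from Thy1- cells was -2.53, the fourth largest fall, and these populations did not overlap. From HFSCs it was -1.34, with 1 Thy1hi library inside the HFSC range. *Slc41a2*, which moves magnesium across membranes, had 11.0, 17.1, 9.75 and 4.85 in Thy1hi cells and 2.99, 14.7 and 0.99 in Thy1hiYFP+ cells. The Thy1- libraries, at 31.6, 44.0, 21.3 and 25.4, lay above both. HFSCs, at 6.31 to 26.1, overlapped them, and DETCs were highest, at 69.5 to 199.

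*Slc41a2* stood less far out than the other genes in the contrasts of the choice. Its log2 difference of -1.49 from Thy1- cells ranked 182nd among the falls and its -0.52 from HFSCs 3961st. Against Thy1- cells, the Thy1hiYFP+ libraries gave -2.61, which ranked 15th. Whether the libraries with YFP were counted among the Thy1-high cells when the genes were selected is not stated. *Ch25h* ranked 823rd among the rises from Thy1- cells and *Epb41l3* 2159th among those from HFSCs.

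**Figure D2:**
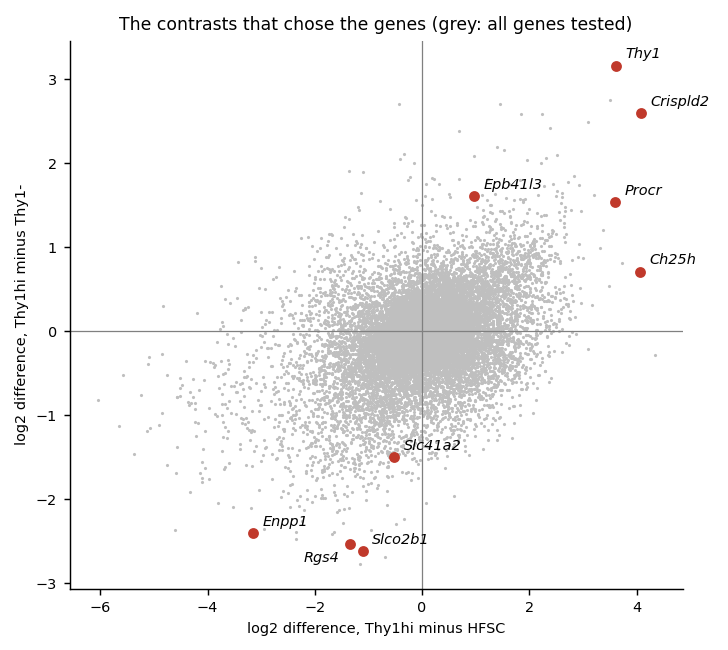
Log2 differences of Thy1hi cells from HFSCs (x axis) and from Thy1- cells (y axis) for all 17204 genes tested (grey) and the 9 genes (red, named). Both contrasts share the Thy1hi libraries, so the axes are not independent. *Thy1* has the highest value on the y axis (3.16), *Ch25h* lies far right (4.07) but near the middle of the y axis (0.71), and *Slc41a2* lies close to the cloud of other genes.

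Levels of different genes were compared only per kilobase of exon. In Thy1hi cells *Ch25h* led, with a mean of 357 normalized counts per kilobase, before *Thy1* with 211, *Crispld2* with 72.0, *Epb41l3* with 37.2 and *Procr* with 26.7. The genes that were low followed, with *Slco2b1* at 6.66, *Enpp1* at 3.45, *Rgs4* at 2.46 and *Slc41a2* at 2.0. In Thy1- cells *Ch25h* had 216 per kilobase and *Slco2b1* 42.2, above the 23.1 of *Thy1*.

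Single libraries carried the spread within a population. Among the Thy1hiYFP+ cells, the third library had the highest value of all 5 genes that were high in Thy1hi cells. The second had the lowest value of 4 of them (*Thy1*, *Epb41l3*, *Crispld2* and *Procr*) and the highest of *Enpp1*, *Slco2b1* and *Slc41a2*. The fourth HFSC library was the lowest of the HFSCs for 7 of the 9 genes, and the fourth Thy1hi library was the lowest of its population for 5. Leaving out the fourth HFSC library brought the log2 difference of Thy1hi cells from HFSCs to 3.15 for *Thy1*, 3.21 for *Procr* and 3.40 for *Ch25h*.

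Markers of other cells that express some of these genes were examined beside them. The 10 fibroblast genes summed to 2136, 1112, 223 and 484 normalized counts in the 4 Thy1hi libraries, and to 302, 388, 163 and 169 in the 4 Thy1- libraries. In the Thy1hiYFP+ libraries they summed to 101, 282 and 75.3, with *Mfap5* at 0 in all of them. The third Thy1hi library, with a fibroblast sum of 223 inside the Thy1- range, had the highest *Crispld2* (424), *Procr* (86.2) and *Epb41l3* (523) of its population, but the lowest *Thy1* (511). *Thy1*, which fibroblasts also express, ran in the order of the fibroblast sums over the 4 Thy1hi libraries, at 775, 663, 583 and 511 beside sums of 2136, 1112, 484 and 223. That order stands among 99 pairings of a gene with a marker list that were examined. It did not hold in the Thy1- libraries, where *Thy1* had 66.0 beside the highest sum (388). Over the 11 Thy1hi, Thy1hiYFP+ and Thy1- libraries, deviations of *Thy1* and of this sum from the population means had an r of -0.09. The third Thy1hiYFP+ library, with the lowest fibroblast sum of all libraries, had the highest *Crispld2* (612) and *Thy1* (1546) of the keratinocytes. The 10 endothelial genes summed to 43.7 to 161 in Thy1hi, 36.7 to 109 in Thy1hiYFP+ and 67.2 to 176 in Thy1- libraries, with *Cldn5* at 0 in all 3 populations. The 8 upper hair follicle genes summed to 7077 to 8591 in Thy1hi and 12907 to 13175 in Thy1- libraries, without overlap. In the Thy1hiYFP+ libraries they summed to 8664, 12586 and 5740, a wider range than in Thy1hi cells. The 8 differentiating keratinocyte genes summed to 9332 to 31424 in Thy1hi and 29703 to 45623 in Thy1- libraries, which overlap at 1 end. In the Thy1hiYFP+ libraries they summed to 62675, 46208 and 17897, of which the first and second lay above every Thy1hi and Thy1- library. The part of these other cells in the values of the 9 genes was not tested.

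**Figure D3:**
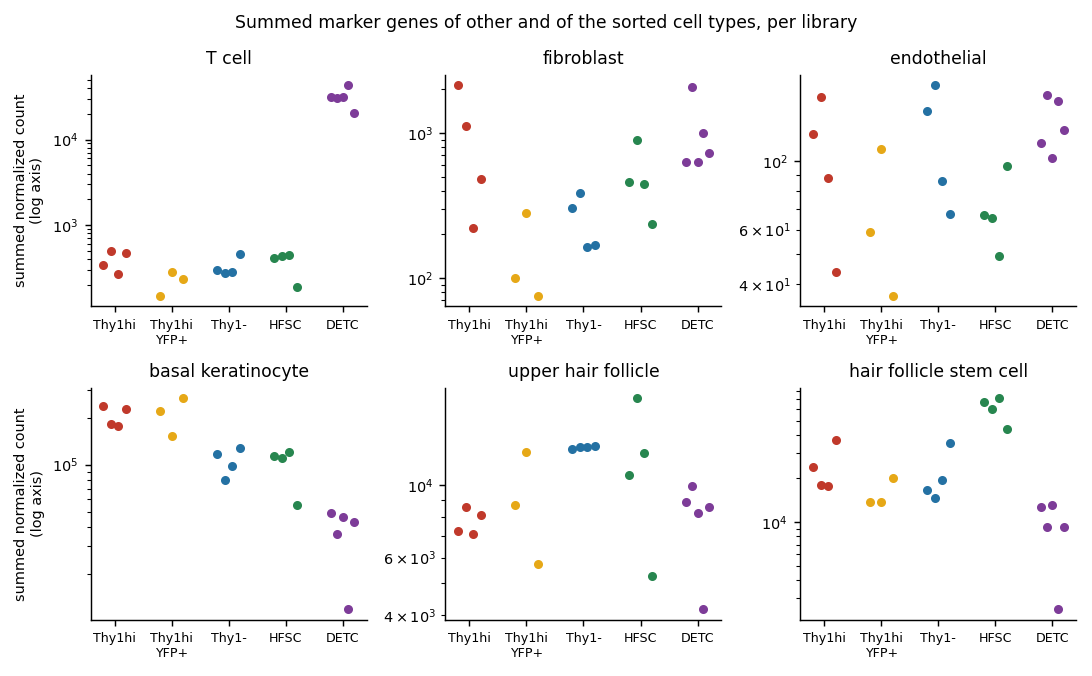
Summed normalized counts (log axis) of 6 marker lists in each of the 20 libraries, grouped by sorted population. T cell genes separate the DETCs from all others, fibroblast genes spread widely within the Thy1hi cells (223 to 2136), and upper hair follicle genes are lower in every Thy1hi library than in every Thy1- library.

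The contrast of Thy1hiYFP+ cells with DETCs holds neither the Thy1hi nor the Thy1- nor the HFSC libraries, and was therefore tested. Whether the Thy1hiYFP+ libraries entered the choice of the genes is not stated. If they did, an arm of this contrast was used for the choice. The p-values are therefore given as a description, and nothing is concluded from them about the 9 genes. This contrast compares Thy1-bearing keratinocytes with Thy1-bearing T cells, and Thy1 was a gate of the sort in both. Thy1hiYFP+ cells had more *Procr*, *Epb41l3* and *Crispld2* and less *Slc41a2*, *Rgs4* and *Thy1* than DETCs. Of the 9 genes, 6 were called by limma at an adjusted p under 0.05, 3 higher and 3 lower. Of all 17204 genes tested, 38.1% were called in this contrast, 17.6% higher and 20.5% lower.

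*Procr* differed most upwards, by a log2 of 3.72 ± 0.66 (SE) with a limma adjusted p of 0.000143, and *Epb41l3* by 3.12 ± 0.26 (limma adjusted p 1.06e-08). *Crispld2* differed by 2.59 ± 0.75 (limma adjusted p 0.00902). In all 3 genes every Thy1hiYFP+ library lay above every DETC library. *Slc41a2* was lower by a log2 of -4.48 ± 0.58 (limma adjusted p 3.9e-06) and *Rgs4* by -1.64 ± 0.52 (limma adjusted p 0.0174), again without overlap. *Thy1* was lower by -1.25 ± 0.39 (limma adjusted p 0.0148), in which the third Thy1hiYFP+ library overlapped the DETCs. A two-sided exact permutation test of the mean log2 values gave 0.0357, the smallest p that 3 against 5 libraries allow, for the 5 genes without overlap, and 0.0714 for *Thy1*. Of all genes tested, 39.8% did not overlap in this contrast. For the genes with few reads the size depended on the pseudocount and on single libraries. With a pseudocount of 10 the log2 difference was 2.58 for *Procr*, -2.99 for *Slc41a2* and -0.79 for *Rgs4*. For *Slc41a2* it was -5.30 without the second and -3.81 without the third Thy1hiYFP+ library.

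The call of *Thy1* was lost without the first (limma adjusted p 0.0632) or the second Thy1hiYFP+ library (0.119), that of *Crispld2* without the third (0.0828, log2 difference 1.95) and that of *Rgs4* without the third (0.186, log2 difference -0.92). *Ch25h*, with a log2 difference of 0.56 (95% interval -1.16 to 2.27), *Enpp1*, with -0.50 (-1.33 to 0.33), and *Slco2b1*, with -0.95 (-1.74 to -0.17, limma adjusted p 0.0518), were not called. T cell genes and keratinocyte genes separated these populations by the design of the sort.

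Thy1hiYFP+ and Thy1hi cells are set side by side as a description. The Thy1hi libraries had chosen the genes, and whether the Thy1hiYFP+ libraries also entered the choice is not stated, so nothing is read from a test of the 9 genes in this contrast. None of the 9 was called by limma and 0.0116% of all genes tested were. For 8 of the 9 genes the libraries of these populations overlapped, and of all genes tested 10.5% did not overlap. The log2 difference of Thy1hiYFP+ from Thy1hi cells was 0.34 for *Thy1*, 0.39 for *Epb41l3*, 0.94 for *Procr* and -0.42 for *Crispld2*. Among the genes that were low in Thy1hi cells it was -0.30 for *Slco2b1*, -0.44 for *Rgs4*, 0.40 for *Enpp1* and -1.12 for *Slc41a2*. These values do not show that the levels were equal.

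*Ch25h* was the gene of the 9 whose libraries did not overlap. Its log2 difference was -2.67, the seventh largest fall of the 17204 genes. It had been selected for high values in these Thy1hi libraries, which favours a fall from them. Without the first Thy1hiYFP+ library, which had 17.9 normalized counts, the difference was -1.73. The 9 sebocyte genes summed to 6744, 2767 and 2311 in the 3 Thy1hiYFP+ libraries and to 1834 to 3417 in the Thy1hi libraries. Most of that sum came from *Scd1* and *Fasn*. This list was noticed among 99 pairings of a gene with a marker list, and its part in the *Ch25h* value was not tested.

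**Figure D4:**
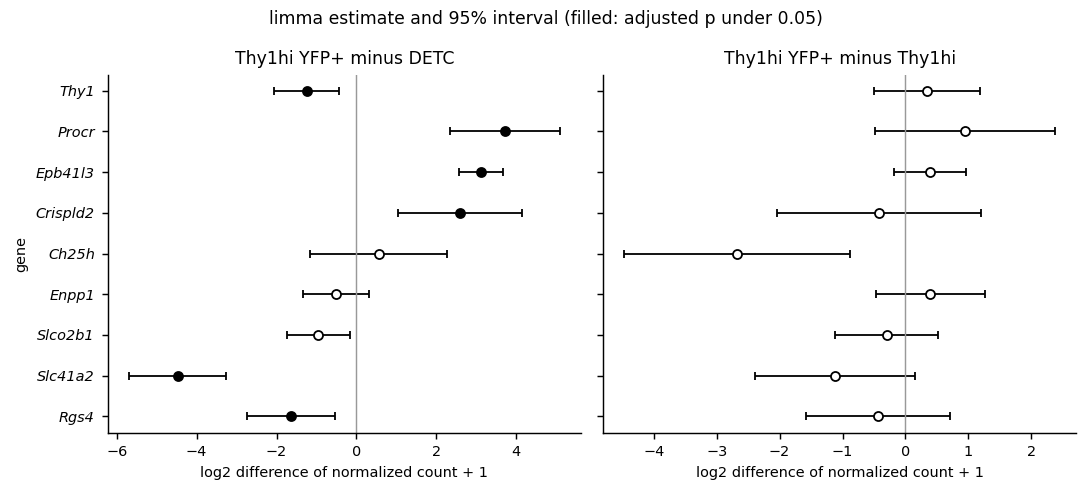
Log2 differences of the normalized count + 1 (x axis) of Thy1hiYFP+ cells from DETCs (left) and from Thy1hi cells (right) for each of the 9 genes, as the limma estimate with its 95% interval. Filled points have an adjusted p under 0.05: 6 genes on the left and none on the right. Both sides are a description, since the Thy1hi libraries chose the genes and the Thy1hiYFP+ libraries may have entered the choice. On the right *Ch25h* lies lowest at -2.67.

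Beside Thy1- cells and HFSCs, the Thy1hiYFP+ libraries are given as a description, since those arms were used for the choice. Their log2 difference from Thy1- cells was 3.51 for *Thy1*, 2.48 for *Procr*, 2.18 for *Crispld2* and 2.0 for *Epb41l3*. For the genes that were low in Thy1hi cells it was -2.97 for *Rgs4*, -2.91 for *Slco2b1*, -2.61 for *Slc41a2* and -2.01 for *Enpp1*. The values of Thy1hi cells from the same Thy1- cells were 3.16, 1.54, 2.60 and 1.61 for the first 4 and -2.53, -2.62, -1.49 and -2.40 for the second 4. *Ch25h* had opposite signs, -1.96 in Thy1hiYFP+ and 0.71 in Thy1hi cells. Of the 9 genes, 8 did not overlap between Thy1hiYFP+ and Thy1- libraries, where 13.6% of all genes tested did not. Between Thy1hi and Thy1- libraries 7 did not overlap, where 6.77% of all genes tested did not and 0.337% were called by limma. Nothing is read from these counts, because the genes were selected on those populations.

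Genes of the same families and pathways were then tested, in 9 lists set by family or pathway. The lists were drawn up with earlier results of these data known. The lists name 128 genes that are in the table, of which 94 were tested. Between Thy1hi and Thy1- cells none of the 94 was called by limma, and DESeq2 called 3. Same-numbered Thy1hi and Thy1- libraries deviated together. With the replicate number as a block, limma called 14 of the 94, 5 higher and 9 lower in Thy1hi cells, against 6.61% of all genes tested, 3.42% higher and 3.19% lower. The median log2 difference over the 94 was -0.12, and over all genes tested -0.02.

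The 3 largest blocked rises were *Epb41l1*, a paralog of *Epb41l3*, with a log2 difference of 1.24 (blocked limma adjusted p 0.00232), *Rgs3* with 0.96 (0.0303) and *Insig1*, which retains the sterol sensor in the endoplasmic reticulum, with 0.66 (0.018). The largest falls were *Cyp27a1*, a sterol 27-hydroxylase, with -1.93 (0.00066), *Rgs20* with -1.44 (0.0142) and *Ank*, which exports pyrophosphate or ATP, with -1.28 (0.00258). *Cyp27a1* had 31.9 ± 15.5 normalized counts in Thy1hi and 121 ± 48.5 in Thy1- cells (SD, n = 4 each), and its adjusted p in limma without the block was 0.0551. *Nt5e*, which turns AMP into adenosine, differed by -1.25 (blocked 0.0122). *Enpp1*, *Ank* and *Nt5e* belong to extracellular nucleotide and pyrophosphate metabolism and were lower in Thy1hi than in Thy1- cells. *Enpp1* was so by its selection, and *Nt5e* was named after its values were seen. Of the 15 tested genes of the list for that metabolism 2 fell with the block, none rose, and 6 had a difference above 0. The median log2 difference of the list was -0.05, near the -0.02 over all genes tested, so no fall of the pathway is read from these genes.

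Between Thy1hi cells and HFSCs, 15 of the 94 genes were called, 6 higher and 9 lower, against 13.4% of all genes tested, 6.51% higher and 6.86% lower. The share of the 94 was thus near the background. *Nt5e* fell most, by a log2 of -4.22 (limma adjusted p 1.39e-06), from 648 ± 80.1 normalized counts in HFSCs to 36.7 ± 17.3 in Thy1hi cells (SD, n = 4 each). *Crispld1*, the closest paralog of *Crispld2*, fell by -3.46 (limma adjusted p 6.09e-05), and *Pi15*, another CAP domain protein, by -3.45 (limma adjusted p 0.000854), so *Crispld2* and its paralog differed in opposite directions between these populations. *Crispld1* had 13.6 ± 8.84 in Thy1hi cells and 173 ± 137 in HFSCs.

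The 3 largest rises over HFSCs were *Enpp3* with 2.34, *F2r* with 1.82 and *F2rl1* with 1.48. *Enpp3*, a paralog of *Enpp1*, had only 8.12 ± 5.38 normalized counts in Thy1hi cells and 0.80 ± 1.01 in HFSCs. *F2r* and *F2rl1* encode protease-activated receptors that thrombin or other proteases cleave, and the complex of protein C with *Procr* is known to signal through the former. *F2rl1* had 1230 ± 272 in Thy1hi cells and 470 ± 188 in HFSCs. Of the 8 tested genes of the protein C and thrombin list, 2 rose and none fell. *Slco2a1*, a prostaglandin transporter and paralog of *Slco2b1*, rose by 1.46 (limma adjusted p 0.00679), while *Slco2b1* was lower in Thy1hi cells. *Slc41a1*, a paralog of *Slc41a2*, had a log2 difference of 0.18 and was not called. With the replicate number as a block, 12 of the 94 were called, 4 higher and 8 lower.

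**Figure D5:**
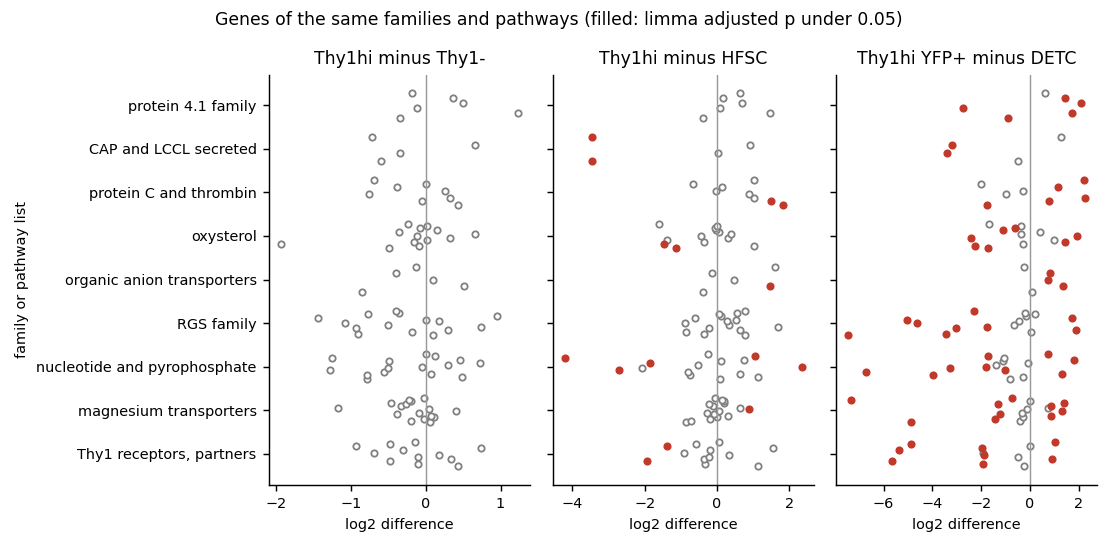
Log2 differences (x axis) of the 94 tested genes of the same families and pathways in 3 contrasts, by list (y axis). Each point is 1 gene, filled where limma gave an adjusted p under 0.05. No point is filled for Thy1hi minus Thy1-, 15 for Thy1hi minus HFSC and 58 for Thy1hiYFP+ minus DETC, where the lowest lie below -7.

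Between Thy1hiYFP+ cells and DETCs, 58 of the 94 genes were called, 23 higher and 35 lower, which is 61.7%, against 38.1% of all genes tested, 17.6% higher and 20.5% lower. The median log2 difference over the 94 was -0.42, and over all genes tested -0.05. The lists were drawn up with earlier results known and include genes of lymphocytes such as *Rgs1*. This larger share is therefore not read as a property of the families. The largest falls were *Rgs1*, a regulator of G protein signals in lymphocytes, with a log2 difference of -7.46, *Trpm6*, a magnesium channel, with -7.35 and *Adora3*, an adenosine receptor, with -6.74. *Trpm6* had 10.4 ± 8.69 normalized counts in Thy1hiYFP+ cells (SD, n = 3) and 1512 ± 506 in DETCs (SD, n = 5). Of the 16 tested genes of the magnesium transporter list, 4 rose, 6 fell and 6 were not called. The largest rises were *F3*, the tissue factor that starts coagulation, with 2.27, *Thbd*, which turns thrombin towards protein C, with 2.21 and *Epb41l4a* with 2.09. *Thbd* had 210 ± 28.8 in Thy1hiYFP+ cells and 49.1 ± 20.9 in DETCs. *Procr* and *Thbd*, which both take part in the activation of protein C, were thus higher in Thy1hiYFP+ cells. Of the 8 tested genes of the protein C and thrombin list, which leaves out *Procr*, 4 rose, 1 fell and 3 were not called. Of these 8 genes, 4 had a difference above 0, and their median log2 difference was 0.26. No rise of the pathway is read from them. Of the 6 tested genes of the protein 4.1 family, 3 rose and 2 fell.

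For 8 of the 9 genes, the gene whose log2 values ran most like it was taken over the 15 libraries without DETCs, which fall into 4 sorted populations, so that Pearson's r largely follows differences between them. The values are a description. *Thy1* was most like *Krt14*, a keratin of basal cells (r = 0.96), which had 75350 ± 11500 normalized counts in Thy1hi and 34950 ± 5826 in Thy1- cells. *Procr* was most like *Gspt1* (r = 0.95), *Epb41l3* most like *Ipo9* (r = 0.90) and *Ch25h* most like *Slc15a4*, a peptide and histidine transporter (r = 0.96). *Slco2b1* was most like *Gata6*, a transcription factor of the upper hair follicle (r = 0.93), which had 33.4 ± 19.8 in Thy1hi and 150 ± 48.8 in Thy1- cells. *Enpp1* was most like *Rapgef5* (r = 0.97), *Rgs4* most like *Col8a1* (r = 0.87) and *Slc41a2* most like *Ggt5* (r = 0.91). Over all 20 libraries, with the DETCs, *Thy1* was most like *Eif4e3* (r = 0.93), *Rrm1* (r = 0.93) and *Slbp* (r = 0.89).

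Genes next to the 9 on the chromosome were followed as a check on position. Between Thy1hi and Thy1- cells, none of the 20 neighbouring or overlapping genes tested was called by limma, with log2 differences from -1.46 to 1.41 and a lowest adjusted p of 0.258. The antisense *Gm15635* differed by -1.14, in the direction of *Slco2b1*, and *Gm26902* by 0.56, in the direction of *Ch25h*. Between Thy1hi cells and HFSCs, 3 of the 20 were called higher and 2 lower, against 13.4% of all genes tested. *Gm39323* by *Thy1* (2.65), *Ctgf* by *Enpp1* (-5.37) and *Chst11* by *Slc41a2* (-3.25) differed in the direction of that gene. *Nuf2* by *Rgs4* (2.02) and *Enpp3* by *Enpp1* (2.34) differed in the opposite one. Between Thy1hiYFP+ cells and DETCs, 4 were called higher and 5 lower, against 38.1%. A part of position was not tested.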

How the data were processed

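RNA was sequenced in 20 libraries from 5 sorted populations of mouse epidermal cells. According to the processing notes and methods, reads were aligned with STAR to mm10 and counted with featureCounts (versions not given in the sources used here). The deposited signal values are gene counts that the authors divided by DESeq2 size factors. Whole reads were recovered from them. Depth ranged from 7781256 to 12982393 reads on genes. Intervals reflect library spread, and few reads limit low genes.

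The column of the fourth Thy1- library was in another row order for 3212 genes and was put back. Of the 5 DETC columns, 2 carry numbers that match no sample title and were used by population only. The main test was limma 3.58.1 (R 4.3.3) with trend on log2(normalized count + 1) over all 20 libraries, for genes with at least 10 normalized counts in at least 3 libraries, with Benjamini-Hochberg adjustment over 17204 genes, two-sided, threshold 0.05. The scripts were tested on simulated data. edgeR 4.0.16, DESeq2 1.42.0, other filters, pseudocounts, scalings, a replicate block and leaving out each library were alternatives.

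The 9 genes, the lists and the tests were chosen with earlier results of these data known. Text names all 9 genes, the 3 called relatives with the largest differences per direction and the closest paralogs, and the gene most like each, except that the one for *Crispld2* is not reported here. For Thy1hi against Thy1-, the named relatives come from the blocked fit, and *Nt5e* there was named after its values were seen. Same-numbered Thy1hi and Thy1- libraries deviated together (r 0.293 to 0.716 over 4 pairs), a pairing seen in the data, and the other contrasts used here did not meet that rule. The design text calls the samples biological replicates, but how many animals each holds is unclear, so p-values measure the spread between these samples.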

Additional observations from a re-analysis of the deposited data

Results flagged for a closer look

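Of the 36 sets of 4 or 5 libraries examined, one per gene and population, 2 had a library far from the others by Dixon's criterion at the 95% level, where chance gives about 1 in 20, or 1.8 of 36. *Thy1* was listed at 1162.6 normalized counts in 1 of the DETC libraries whose column number matches no sample title, and at 1969 to 2260 in the other DETC libraries. *Epb41l3* was listed at 300.59 in the fourth HFSC library and at 194 to 207 in the other HFSC libraries.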

How the results depend on the processing

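Between Thy1hiYFP+ cells and DETCs, *Epb41l3*, *Procr* and *Slc41a2* were called under every alternative that gave them a value, and *Ch25h* and *Enpp1* under none. Of the 9 genes, 6 were called, and 3 with no filter. Beyond the libraries named in the report, *Thy1* lost its call with no filter (adjusted p 0.0819) and quantile normalization (0.0745), *Crispld2* with no filter (0.0612), and *Rgs4* with no filter (0.0522), quantile normalization (0.0651, log2 difference -1.01, with -3.86 for *Slc41a2*), a fit to these populations alone (0.0584) and the replicate block (0.112). *Slco2b1* gained one at a mean of at least 50 (0.0421), with the block (0.0252), and without the first DETC (0.0469), a DETC whose number matches no title (0.0205) or the second Thy1hiYFP+ library (0.00714). No called gene changed direction. Uncalled log2 differences that changed sign were *Ch25h* from DETCs (-0.021 without the third Thy1hiYFP+ library, with a range of -0.021 to 1.5 leaving out 1 library) and, from Thy1hi cells, *Thy1* (-0.13, range -0.13 to 0.73) and *Rgs4* (0.28, range -0.88 to 0.28) without that library and *Slco2b1* (0.13, range -0.76 to 0.13) without the first.

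Over all genes, calls between Thy1hiYFP+ and Thy1hi cells (2) were 113 with DESeq2, 25 with a pseudocount of 10, 16 with these populations alone, 9 with the replicate block, 6 with quantile normalization, 5 with no filter, 0 with the same total per library and 0 to 4 leaving out 1 library. Between Thy1hi and Thy1- cells (58) they were 1137 with the replicate block, 210 with DESeq2, 95 with these populations alone, 34 with the same total, 18 with no filter and 13 to 38 leaving out 1 library. Of the 94 relatives there (0 called), 14 were called with the block, 3 with DESeq2, 2 with a pseudocount of 10, 1 at a mean of at least 50, 1 with quantile normalization and 0 to 1 leaving out 1 library. Between Thy1hi cells and HFSCs (2300, 1120 higher and 1180 lower) they were 1398 with no filter, 1369 with the block, and with the same total 1204 higher and 753 lower. That scaling moved the median of all genes in this contrast from 0.0245 to 0.114. It moved that between Thy1hi and Thy1- cells to -0.139. The cause of these changes was not tested. A mean of at least 50 left *Procr*, *Rgs4* and *Slc41a2* untested.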

Other observations

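*Ch25h* was low in the libraries with the highest sum of the 9 sebocyte genes within their population. In the first Thy1hiYFP+ library it had 17.9 normalized counts beside a sebocyte sum of 6744, and in the first HFSC library 8.08 beside 7550. In the first DETC library it had 18.6 beside 5672. The fourth HFSC library, with the lowest sebocyte sum of the HFSCs (1178), had 5.61, so the values did not run opposite in every library. This pattern was noticed in the data, among 99 pairings of a gene with a marker list, and was not tested. Most of the sum came from *Scd1* and *Fasn*, with means of 906 and 1388 in Thy1hi cells, where *Awat1* and *Awat2* had 8.49 and 6.92. *Scd1* and *Fasn* were listed in every population, so the sum is not a measure of sebocytes alone.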
